A study of Mus musculus with 4 samples.

Results

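The genes of the unfolded protein response and of folding in the endoplasmic reticulum (ER) were followed in adenomas from the small intestine of Apc Min mice, with libraries labelled as wild type or knockout for PAF. The set held 32 genes, each with its own row among the 29871 symbols of the deposited expression table, and was chosen by name as ER chaperones, disulfide isomerases, ER-associated degradation (ERAD) genes and response factors. Control adenomas (named WT in the labels) had the genotype APC Min/+, and knockout adenomas had the genotype PAF KO; APC Min/+, so that both groups carried 1 truncated Apc allele. Each group had 2 RNA-seq libraries, called control 1 and 2 and knockout 1 and 2 here after their labels, and pairs of values below are in that order. The labels give no age and do not say how the PAF allele was made or whether each library came from 1 animal, so p-values measure only the spread between these libraries.

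Proteins that enter the secretory pathway fold in the ER with the help of the chaperone BiP, lectin chaperones and enzymes that form disulfide bonds. Unfolded protein is sensed by IRE1, which splices the Xbp1 mRNA into the template of an active transcription factor, by ATF6, which is cut in the Golgi to release a transcription factor, and by PERK, which slows translation and favours that of ATF4. In the intestine the response is best known in secretory Paneth and goblet cells, and the epithelium has a second IRE1, IRE1 beta, encoded by Ern2. The splicing, cleavage and phosphorylation that switch the sensors on are not read by gene-level expression values. Branches share many targets, so each gene below was placed in the branch it is best known for.

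The values are FPKM, fragments scaled by transcript length and library total, so that levels can be compared between genes. Steps in low values gave an estimated 12900000 and 17800000 fragments for controls 1 and 2 and 15500000 and 24500000 for knockouts 1 and 2. The control libraries lay close together, with a median gap of 0.09 on the log2(FPKM + 1) scale over 13716 tested rows, against 0.49 between the knockout libraries. Of rows with at least 200 estimated fragments in both, 30.3% of control rows and 85.8% of knockout rows differed by more than 2 counting errors. Knockout 2 also differed in sex, with Xist at 46.4 FPKM against at most 0.00861 in the other 3. The PAF transcript (2810417H13Rik) stood at 17.9 and 17.8 FPKM in control adenomas and 4.13 and 11.4 in knockout adenomas, so that knockout 1 kept 23.2% and knockout 2 kept 63.9% of the control mean. The labels do not say which part of the gene was removed, so the level of this row does not settle the genotype of knockout 2. All 6 defining epithelial markers were present, for example Epcam at 945 to 1342 FPKM.

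Some promoters of the set hold the letters through which the response is known to act. In all, 4 motifs were searched on both strands of the 250 bases before the annotated start: the ER stress response element ERSE (CCAAT and CCACG with 9 bases between them), ERSE-II (ATTGG and CCACG with 1 base between them), the core of the XBP1 element UPRE (TGACGTGG) and the core of the amino acid response element AARE, which ATF4 binds (TGATG and AA with 1 base between them). Promoter sequences were found in RefSeq (build GRCm38.p6) for 27 of the 32 genes, all but Ern2, Atf6, Hyou1, Manf and Derl1. ERSE stood in 9 of the 27 (33.3%), namely Calr, Canx, Creld2, Dnajc3, Ero1lb, Hsp90b1, Hspa5, Pdia6 and Syvn1, and in 0.13% of 27025 genes. ERSE-II stood in Herpud1 alone (3.7% against 0.037% of genes), the AARE core in Asns, Chac1 and Herpud1 (11.1% against 3.91%) and the UPRE core in 0 of the 27 (0.603% of genes). A match is a description of letters and not a measured binding site. The genes were chosen by name as parts of the response, a choice that bears on how often its motifs occur, so these shares were not tested. The 7 sequences below are those of genes whose levels the results turn on: chaperone genes with ERSE that read high in knockout 2, an ERAD ligase with ERSE that read low there, and the genes with ERSE-II or AARE letters that lay apart from the controls in both knockout libraries. They run 5′ to 3′ on the gene's strand up to the last base before the start, and capitals mark the fixed letters of a motif.
Hspa5 (chr2:34771840-34772089, plus strand): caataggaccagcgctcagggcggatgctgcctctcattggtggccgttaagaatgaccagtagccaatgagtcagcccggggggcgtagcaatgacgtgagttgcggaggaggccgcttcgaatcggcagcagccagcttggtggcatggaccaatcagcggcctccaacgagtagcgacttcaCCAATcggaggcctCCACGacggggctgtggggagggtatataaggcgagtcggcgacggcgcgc
Hsp90b1 (chr10:86705445-86705694, minus strand): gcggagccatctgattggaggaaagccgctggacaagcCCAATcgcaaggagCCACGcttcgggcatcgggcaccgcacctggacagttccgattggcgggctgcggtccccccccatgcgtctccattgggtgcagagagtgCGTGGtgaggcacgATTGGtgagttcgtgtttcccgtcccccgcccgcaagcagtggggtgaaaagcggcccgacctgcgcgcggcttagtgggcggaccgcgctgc
Pdia6 (chr12:17266339-17266588, plus strand): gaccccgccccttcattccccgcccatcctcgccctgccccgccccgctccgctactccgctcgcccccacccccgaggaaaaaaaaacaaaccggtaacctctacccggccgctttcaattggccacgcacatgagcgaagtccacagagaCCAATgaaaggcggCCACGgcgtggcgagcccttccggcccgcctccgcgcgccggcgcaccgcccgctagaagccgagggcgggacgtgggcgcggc
Syvn1 (chr19:6046326-6046575, plus strand): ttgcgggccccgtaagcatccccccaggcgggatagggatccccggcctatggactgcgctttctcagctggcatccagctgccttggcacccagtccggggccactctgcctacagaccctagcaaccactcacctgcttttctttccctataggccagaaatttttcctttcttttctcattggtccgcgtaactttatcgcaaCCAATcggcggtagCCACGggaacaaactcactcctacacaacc
Herpud1 (chr8:94386179-94386428, plus strand): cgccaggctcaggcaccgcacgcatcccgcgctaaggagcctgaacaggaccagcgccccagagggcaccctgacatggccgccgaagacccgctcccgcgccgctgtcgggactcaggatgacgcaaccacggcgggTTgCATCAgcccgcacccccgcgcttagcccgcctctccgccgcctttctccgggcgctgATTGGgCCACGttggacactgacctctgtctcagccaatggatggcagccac
Asns (chr6:7693210-7693459, minus strand): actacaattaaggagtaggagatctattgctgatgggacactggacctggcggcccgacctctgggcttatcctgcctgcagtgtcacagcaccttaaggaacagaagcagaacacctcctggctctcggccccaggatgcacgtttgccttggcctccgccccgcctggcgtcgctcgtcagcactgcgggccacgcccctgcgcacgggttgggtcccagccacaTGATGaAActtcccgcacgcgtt
Chac1 (chr2:119350992-119351241, plus strand): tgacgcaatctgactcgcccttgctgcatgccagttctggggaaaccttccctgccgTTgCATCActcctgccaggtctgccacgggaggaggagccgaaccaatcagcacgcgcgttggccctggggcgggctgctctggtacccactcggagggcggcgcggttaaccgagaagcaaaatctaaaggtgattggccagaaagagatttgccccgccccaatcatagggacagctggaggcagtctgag
Hsp90b1 carries ERSE in both directions, with last bases 194 and 89 bases before the start. The single match of Hspa5 ends 47 bases before it and that of Syvn1 26 bases before it. The AARE core of Asns begins 23 bases before the start, and that of Chac1 lies on the other strand, ending 186 bases before it.

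None of the 32 genes passed the test between genotypes, and the clearest pattern was a gap between the knockout libraries. That gap was not particular to the set, with a median of 0.37 over the 32 genes and 0.49 over all rows. Hspa5, Hsp90b1, Canx, Pdia3, Pdia4 and Pdia6, major chaperones and isomerases, read 0.956 to 1.26 times the control mean in knockout 1. In knockout 2 they read 1.64 to 2.56 times that mean. Other abundant folding genes did not split this way: Calr read 1.08 and 1.07 times, P4hb 1.45 and 0.884 times, and Hyou1 0.900 and 0.864 times. Knockout 2 kept 63.9% of the PAF transcript, differed in sex and read low for absorptive enterocyte markers. The part of each in these values was not tested. Another group lay apart from both controls in both knockout libraries, with at most 0.17 between the knockouts on the log2 scale. Asns, Ern2, Manf, Pdia5, Ddit3 and Calr were higher (Calr lower, by -0.017, under quantile scaling), and Chac1, Herpud1 and Hyou1 lower. Differences were small for Ddit3 (0.13) and Calr (0.11), and the limit was set after the values were seen. The share of all rows meeting the same rule was not counted, so these genes are listed without a claim about the set. All 32 had a mean of at least 1 FPKM and entered the limma fit, which called 10 of all rows at an adjusted p under 0.05 (0.0729%) and 0 of the set. The count in the set was 0 without either control, 20 without knockout 1 and 5 without knockout 2, where the lone knockout is assumed to vary like the controls and 8397 and 2833 of all rows (61.2% and 20.7%) were called. Without adjustment, 1 gene of the set had a p under 0.05 and was higher (Asns; 3.44% of all rows) and 1 was lower (Chac1; 9.76% of all rows), and neither held without control 1 or without control 2. Both knockouts lay above both controls for 13 of the 32 (40.6%; 21.5% of all rows) and below them for 7 (21.9%; 30.2% of all rows), while the groups overlapped for 12. The median log2 difference was 0.21 over the set and 0.0035 over all rows. The gap between knockouts exceeded that between controls for 27 of the 32 (84.4%), close to the 86.5% of all rows, and knockout 2 read above knockout 1 for 22 of them (68.8%; 61.8% of all rows).

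By library, 12 of the 32 (37.5%) read at least 0.5 on the log2 scale above the control mean in knockout 2, where 29.1% of all rows did. In knockout 1 only 3 did (9.38%; 8.19% of all rows), namely Asns, P4hb and Trib3. At least 0.5 below the control mean were 2 genes in knockout 2 (Syvn1 and Chac1; 23.5% of all rows) and 3 in knockout 1 (Chac1, Herpud1 and Eif2ak3; 15.9% of all rows). The limit of 0.5, a 1.41-fold change, was chosen after the values were seen. Medians over the set were 0.067 in knockout 1 and 0.32 in knockout 2, beside -0.11 and 0.09 over all rows.

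**Figure D1:**
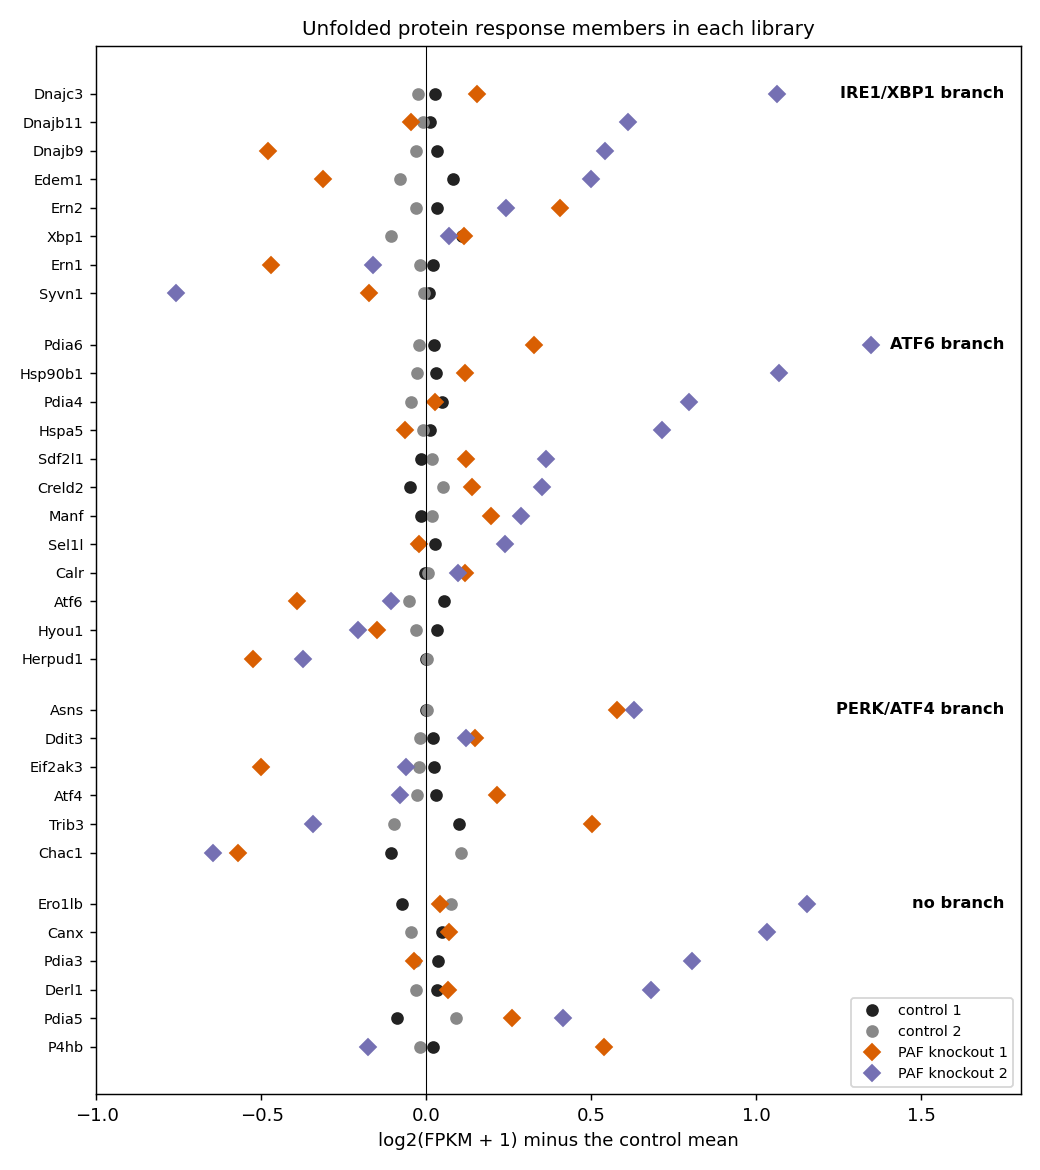
Log2(FPKM + 1) of each gene in each of the 4 libraries minus the control mean (x axis), with genes ordered within branches by knockout 2; circles are controls and diamonds knockouts. Knockout 2 stands to the right for Pdia6, Hsp90b1, Dnajc3, Ero1lb and Canx, while both knockouts stand to the right for Asns and to the left for Chac1 and Herpud1.

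Among the sensors, log2 differences lay between -0.32 and 0.32, and none passed the test. Ern1, which encodes the IRE1 of most tissues, read 8.25 and 7.999 FPKM in control adenomas and 5.59 and 7.15 in knockout adenomas (log2 difference -0.32, SE 0.190; limma adjusted p = 0.513). Ern2, the epithelial IRE1 beta, lay the other way at 15.2 and 14.5 FPKM in control adenomas and 19.95 and 17.7 in knockout adenomas (0.32, SE 0.160; limma adjusted p = 0.456). Both knockouts lay below both controls for Ern1 and above them for Ern2, so the ratio of Ern2 to Ern1 was 1.84 and 1.81 in control adenomas and 3.57 and 2.47 in knockout adenomas. Eif2ak3, which encodes PERK, read 16.8 and 16.3 FPKM in control adenomas, 11.4 in knockout 1 and 15.8 in knockout 2 (-0.28, SE 0.217; limma adjusted p = 0.572). Without knockout 2 its difference was -0.50, and without knockout 1 it was -0.063. Atf6 read 15.1 and 13.9 FPKM against 10.8 and 13.4 (-0.25, SE 0.184; limma adjusted p = 0.561), again lowest in knockout 1.

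The transcription factors downstream stood at much higher levels than the sensors, apart from Ddit3. Xbp1 read 181 and 156 FPKM in control adenomas and 182 and 177 in knockout adenomas, and the spread of the controls covered nearly all of it (0.09, SE 0.185; limma adjusted p = 0.808). The row does not separate spliced from unspliced Xbp1. Atf4 read 133 and 128 FPKM against 152 and 124, with 1 knockout above and 1 below the controls (0.066, or -0.015 under quantile scaling, SE 0.195; limma adjusted p = 0.872). Ddit3, which encodes the death-promoting factor CHOP, read 9.56 and 9.26 FPKM against 10.5 and 10.3 (0.13, SE 0.150; limma adjusted p = 0.673). The knockouts were both above the controls for Ddit3, at 111.8% and 109.6% of the control mean.

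**Figure D2:**
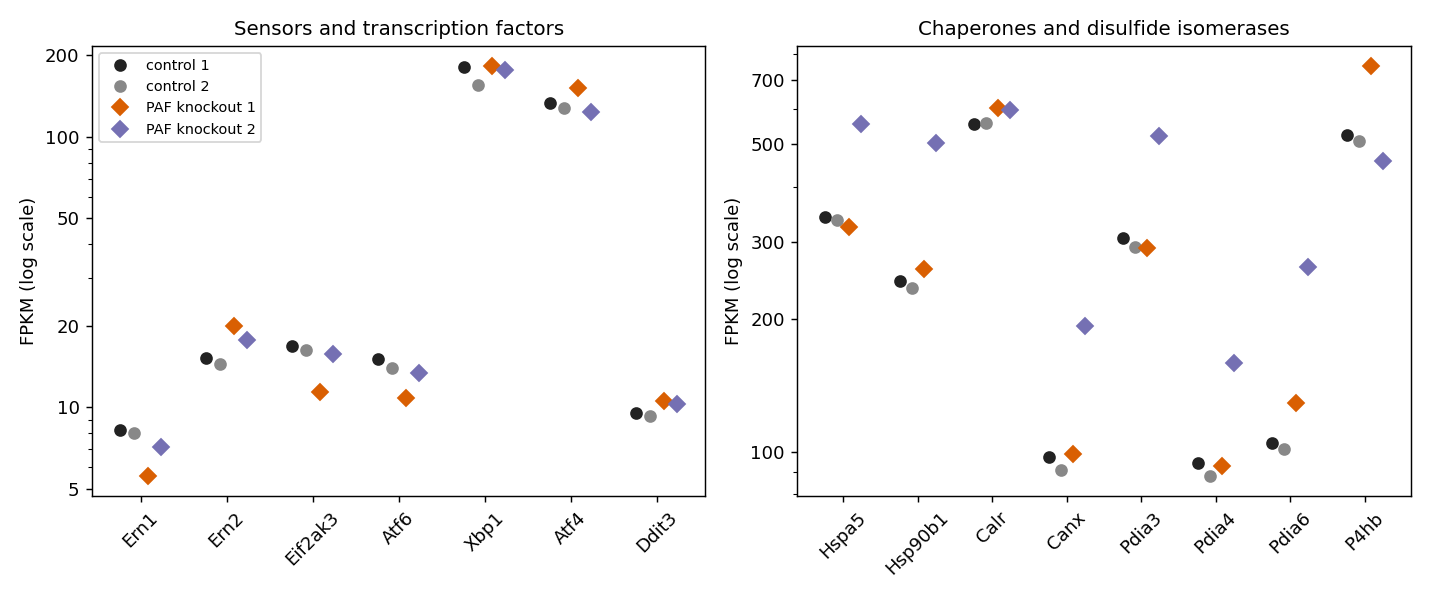
FPKM on a log axis for 7 sensors and transcription factors (left) and 8 chaperones and disulfide isomerases (right), 1 point per library. In the left panel Ern1, Eif2ak3 and Atf6 are lowest in knockout 1, and in the right panel knockout 2 is highest for Hspa5, Hsp90b1, Canx, Pdia3, Pdia4 and Pdia6, and knockout 1 for P4hb.

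In the IRE1/XBP1 branch the targets differed between the knockout libraries. Dnajc3, a J-domain partner of BiP that also restrains PERK, read 27.3 and 26.3 FPKM in control adenomas, 29.9 in knockout 1 and 57.0 in knockout 2 (0.61, SE 0.361; limma adjusted p = 0.511). Dnajb9, a partner of BiP that directs clients to degradation and represses IRE1, read 24.0 and 22.9 FPKM in control adenomas, 16.5 in knockout 1 and 34.6 in knockout 2. Edem1, which hands misfolded glycoproteins to ERAD, read 22.8 and 20.2, then 17.1 and 30.7 FPKM. Dnajb9 and Edem1 were thus lowest in knockout 1 and highest in knockout 2, and neither group difference reached 0.1 (0.03, SE 0.399, and 0.09, SE 0.333). Dnajb11, another partner of BiP, read 54.2 and 53.4 FPKM, then 52.0 and 82.7. Syvn1, the ubiquitin ligase HRD1 of ERAD, went against the chaperones, at 31.7 and 31.4 FPKM in control adenomas, 27.8 in knockout 1 and 18.2 in knockout 2 (-0.47, SE 0.258; limma adjusted p = 0.484). The branch median over 8 genes was -0.11 in knockout 1 and 0.37 in knockout 2.

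The ATF6 branch held the most abundant chaperones. Hspa5, which encodes BiP, read 341 and 336 FPKM in control adenomas, 324 in knockout 1 and 556 in knockout 2 (0.32, SE 0.337; limma adjusted p = 0.653). Without knockout 2 its difference was -0.065, and without knockout 1 it was 0.71. Hsp90b1, the HSP90 of the ER, read 245 and 235 FPKM, then 260 and 504 (0.59, SE 0.388; limma adjusted p = 0.537). Pdia6, a disulfide isomerase that also acts on IRE1, had the largest difference of the set, at 104 and 101 FPKM in control adenomas, 129 in knockout 1 and 263 in knockout 2 (0.84, SE 0.404; limma adjusted p = 0.453). Pdia4 read 94.1 and 88.2, then 92.7 and 159 FPKM. The difference of Hsp90b1 was 0.12 and that of Pdia6 0.33 without knockout 2, which for both is under the value with all libraries by more than 1.5 times. Calr, the lectin chaperone calreticulin, was the most abundant gene of the set in control adenomas and differed little, at 557 and 559 FPKM against 605 and 597, so that the libraries did not split as for Hspa5.

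Other members of the ATF6 branch differed by less and in both directions. Manf, a secreted protein released on ER stress, read 85.3 and 87.2 FPKM in control adenomas and 98.9 and 105 in knockout adenomas (0.24, SE 0.161; limma adjusted p = 0.544). Creld2 (0.24, SE 0.172) and Sdf2l1, which works with Dnajb11 (0.24, SE 0.174), were likewise above both controls in both knockouts. Herpud1, a scaffold of the ERAD ligase, was lower in both, at 65.4 and 65.5 FPKM in control adenomas and 45.1 and 50.2 in knockout adenomas (-0.45, SE 0.161; limma adjusted p = 0.380). The Herpud1 difference was -0.53 with knockout 1 alone and -0.37 with knockout 2 alone. Hyou1, a nucleotide exchange factor of BiP, read 61.5 and 58.7 FPKM against 54.1 and 51.9. Sel1l, the adaptor of HRD1, overlapped between groups (0.11, SE 0.176). The ratio of Herpud1 to Hspa5, both induced by ER stress in textbook accounts, was 0.192 and 0.195 in control adenomas, 0.139 in knockout 1 and 0.0904 in knockout 2. The branch median over 12 genes was 0.070 in knockout 1 and 0.32 in knockout 2.

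The PERK/ATF4 branch held the gene of smallest p, and its targets did not lie in 1 direction. Asns, asparagine synthetase and an ATF4 target, read 36.8 and 36.9 FPKM in control adenomas and 55.5 and 57.5 in knockout adenomas (0.60, SE 0.151; limma unadjusted p = 0.0179, adjusted p = 0.308). Chac1, an ATF4 target that breaks down glutathione, read 2.42 and 2.96 FPKM in control adenomas and 1.48 and 1.35 in knockout adenomas (-0.61, SE 0.211; limma unadjusted p = 0.0475, adjusted p = 0.374). Both knockouts lay outside the controls for both genes, Asns at 150% and 156% and Chac1 at 54.9% and 50.2% of the control mean. Chac1 rested on an estimated 37 to 86 fragments per library, so its values are the least precise of the set, while Asns rested on 957 to 2846. Trib3, a pseudokinase induced by ATF4 that restrains it, read 3.61 and 3.03 FPKM in control adenomas, 5.11 in knockout 1 and 2.40 in knockout 2. Exact permutation of 2 against 2 libraries cannot give a 2-sided p under 0.333, so it could not pass the threshold for any single gene. The branch median over 6 genes was 0.18 in knockout 1 and -0.071 in knockout 2.

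The 6 folding and disposal genes set in no branch included both directions of the split. Canx, the membrane lectin calnexin, read 97.0 and 90.9 FPKM in control adenomas, 98.5 in knockout 1 and 193 in knockout 2 (0.55, SE 0.385; limma adjusted p = 0.556). Pdia3, the isomerase that works with calnexin and calreticulin, read 306 and 291, then 291 and 523 FPKM. P4hb, the classical disulfide isomerase and a subunit of collagen prolyl hydroxylase, had the reverse order, at 524 and 510 FPKM in control adenomas, 752 in knockout 1 and 457 in knockout 2. The ratio of Pdia6 to P4hb was 0.199 in both controls, 0.172 in knockout 1 and 0.576 in knockout 2. Pdia5 was above both controls in both knockouts, at 19.4 and 22.1 against 25.0 and 27.9 FPKM (0.34, SE 0.170; limma adjusted p = 0.460). Ero1lb, which oxidizes the isomerases, read 1.61 and 1.90, then 1.83 and 5.11 FPKM. Derl1, a channel component of ERAD, read 24.4 and 23.3, then 25.0 and 38.9 FPKM. Medians over these 6 genes were 0.067 in knockout 1 and 0.74 in knockout 2.

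Set against the promoter letters printed above, the 9 genes with ERSE had a median log2 difference of 0.12 in knockout 1 and 1.03 in knockout 2. The 18 genes with a promoter entry and no ERSE had medians of 0.00097 and 0.18. Values in knockout 2 ran from -0.76 (Syvn1) to 1.35 (Pdia6) among genes with ERSE and from -0.65 (Chac1) to 0.80 (Pdia3) among those without. At least 0.5 above the control mean in knockout 2 were 6 of the 9 (66.7%) and 5 of the 18 (27.8%), beside 29.1% of all rows. Both sets were described with no test. The 6 are Hspa5, Hsp90b1, Canx, Pdia6, Dnajc3 and Ero1lb, all shown above as high in knockout 2, so the split partly restates that choice. Other ER folding genes, listed by name and not by promoter letters, reached 64.7% (11 of 17) at the same limit in knockout 2.

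Other folding and translocation genes of the ER, outside the set, also read higher in knockout 2 than in knockout 1. Among 17 tested folding enzymes and chaperones the median was -0.0043 in knockout 1 and 0.53 in knockout 2, and 11 (64.7%) read at least 0.5 above the control mean in the latter, where 29.1% of all rows did. Among 21 genes of translocation into the ER and signal peptide cleavage the medians were 0.039 and 0.51, again with 11 (52.4%) at that limit in knockout 2. N-glycosylation genes (0.029 and 0.17 over 14), other ERAD genes (-0.091 and 0.17 over 19) and cytosolic aminoacyl-tRNA synthetases (-0.019 and 0.27 over 18) were nearer the medians of all rows. At the same limit in knockout 2 were 4 glycosylation genes (28.6%) and 5 other ERAD genes (26.3%), but 8 synthetases (44.4%). A high share was thus not particular to ER lists. ATF4 targets and integrated stress response genes had medians of -0.089 and -0.38 over 23, and 11 of them (47.8%) read at least 0.5 below the control mean in knockout 2, where 23.5% of all rows did. Other stress transducers had medians of -0.13 and -0.19 over 19. By limma 0 genes of these 7 lists had an adjusted p under 0.05.

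With no adjustment, genes of these lists passed p under 0.05 in both directions. They were 2 of 23 ATF4 targets higher and 2 lower, 1 of 14 glycosylation genes higher, and 1 lower each among other folding genes, ERAD genes, translocation genes and tRNA synthetases, with 3 of 19 other stress transducers (15.8%) lower. Over all rows 3.44% were higher and 9.76% lower at that limit. The 8.7% of ATF4 targets that were lower and the single lower genes of the other 4 lists (4.76% to 5.88%) were thus under the share of all rows. Sepn1, a selenoprotein of the ER membrane, read 21.5 and 19.3 FPKM in control adenomas and 9.14 and 9.37 in knockout adenomas (-1.06, SE 0.157; limma adjusted p = 0.238). Srprb, a subunit of the receptor that docks ribosomes at the ER, read 62.2 and 70.3 against 35.6 and 24.4 FPKM. Mthfd2, a mitochondrial folate enzyme and ATF4 target, was higher like Asns, at 7.34 and 7.75 against 12.3 and 13.03 FPKM, whereas Sesn2, another ATF4 target, was lower like Chac1, at 6.18 and 4.84 against 2.95 and 3.10 FPKM. Among stress transducers, Atf6b, the relative of Atf6, read 38.9 and 40.9 against 29.4 and 23.4 FPKM, and Mbtps1, the Golgi protease that cuts ATF6, read 50.8 and 49.4 against 34.0 and 34.7 FPKM.

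**Figure D3:**
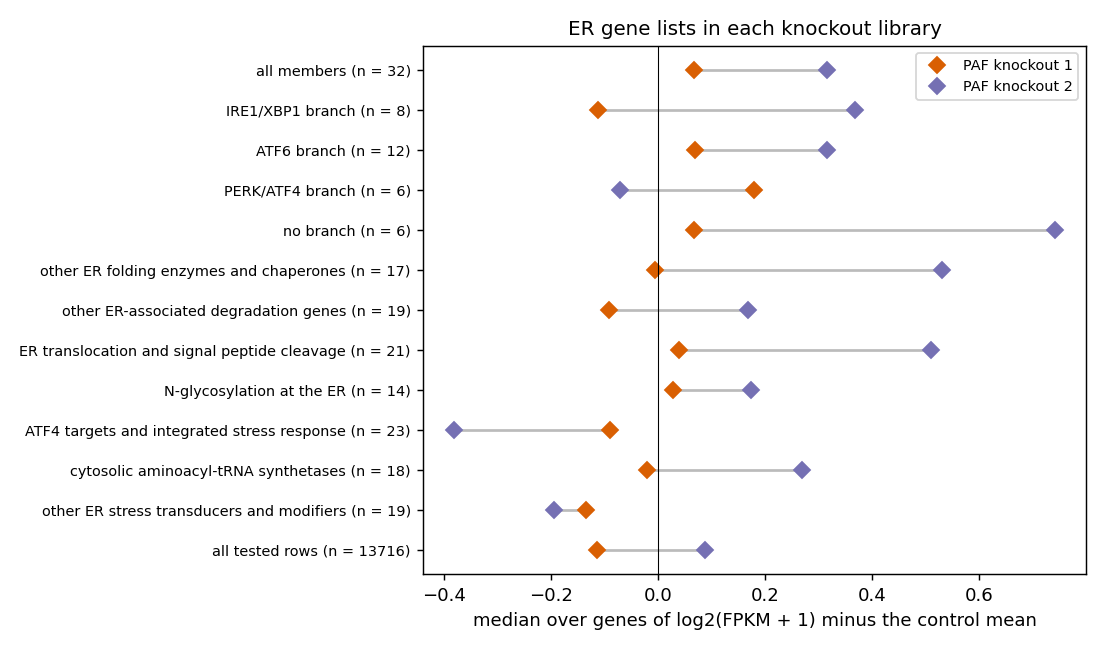
Median over the tested genes of each list of log2(FPKM + 1) minus the control mean, in knockout 1 (orange) and knockout 2 (purple), with the number of tested genes in each label. Folding and translocation lists stand near 0 in knockout 1 and near 0.5 in knockout 2, beside -0.11 and 0.09 for all tested rows.

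Summed markers of plasma, Paneth and goblet cells, which are rich in ER, were highest in knockout 2, as were those of smooth muscle. Summed FPKM of plasma cell markers (9 of 11 listed were in the table) was 497 and 468 in control adenomas, 373 in knockout 1 and 1091 in knockout 2. Igj, the joining chain of secreted antibodies, made up 839 FPKM of the last, and without it the sums were 258 and 243, then 182 and 252. Of the 9 plasma cell markers, 7 lay above both controls in knockout 2, while Sdc1 (80.1% of the control mean) and Prdm1 (48.9%) lay below, as they did in knockout 1 (67.7% and 59.0%). Beside these and the counts below, 51.3% of all tested rows lay above both controls in knockout 2 and 41.7% below. Summed Paneth cell markers (7 of 10 listed) were 3462 and 3741, then 2768 and 7173. Ang4, an antimicrobial angiogenin, made up 3248 of the 7173, and without it the sums were 3069 and 3290, then 2665 and 3926. In knockout 2, 6 of the 7 Paneth markers lay above both controls and Pla2g2a below, at 34.4% of the control mean. Summed goblet cell markers (11 genes) were 6261 and 7310, then 9873 and 14973, or 4740 and 5176, then 6852 and 8533 without Spink4. Of the 11, 9 lay above both controls in knockout 2, and Fcgbp and Zg16 below. In knockout 1, 10 of the 11 already lay above both controls, where 31.2% of all tested rows did. The genes left out, those that gained the most FPKM in knockout 2, were chosen after the values were seen. Absorptive enterocyte markers (10 genes) went the other way in knockout 2, at 7937 and 8511 in control adenomas, 12395 in knockout 1 and 984 in knockout 2, with all 10 below both controls in the last. Smooth muscle markers (8 genes) summed to 229 and 228, then 272 and 816, with all 8 above both controls in knockout 2. Neutrophil markers (8 genes) summed to 55.8 and 66.2, then 198 and 146. Without S100a8, left out by the same rule, the sums were 49.2 and 53.0, then 135 and 94.6. Of the 8, 7 lay above both controls in knockout 1 and Ltf below. In knockout 2, 6 lay above both controls, and Ltf and Ngp below. No marker was at 0 in all libraries, and the part of these cells in the chaperone values was not tested. In bulk tissue, a change in the number of such cells and a change in RNA per cell cannot be told apart. Sdc1 and Prdm1 of the plasma cell list are also made by epithelium, and Nupr1 of the Paneth list also stands among the ATF4 targets.

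**Figure D4:**
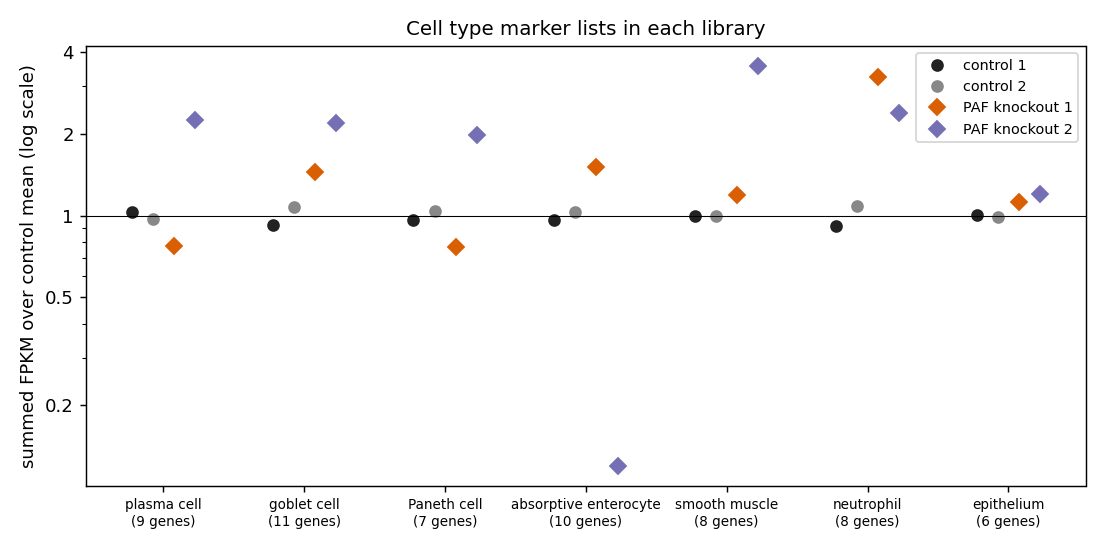
Summed FPKM of each marker list divided by the control mean (log axis), 1 point per library. Knockout 2 is above the controls for plasma, goblet, Paneth and smooth muscle lists and far below them for absorptive enterocytes. The epithelial list lies nearest the controls in each knockout but above them, at 6216 and 6134 FPKM in controls and 6926 and 7403 in knockouts.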

How the data were processed

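RNA from small-intestinal adenomas went through a column kit and Illumina library preparation, according to the labels. The authors deposited 1 table of FPKM values with 1 column per library, per the file headers. The submitters' processing notes name TopHat2, Cuffdiff and the build mm9, without versions or an annotation. Of 29955 rows, 84 repeated a symbol, and the row of higher mean was kept.

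Rows averaging 1 FPKM or more were fitted with limma 3.58.1 (R 4.3.3) on log2(FPKM + 1), a scale that understates changes of low genes, with a variance trend. Tests were 2-sided, without a replicate block, and Benjamini-Hochberg adjustment covered all 13716 rows. The steps were tested on simulated data. Depth was estimated from FPKM times length for genes with 1 GENCODE transcript of at least 1000 bases, and limits precision. Counting errors and fragment numbers from it are approximate and cover counting error only.

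The set, branches and lists were chosen with earlier results of these data known. All 32 genes are accounted for; full values are given for sensors, factors, Hspa5 and the 12 genes of smallest p, and from wider lists for genes among the 3 of smallest p. Other genes named were chosen after their values were seen. Alternatives were pseudocounts of 0.1 and 0.01, no filter, a filter at 5 FPKM, median centring, quantile scaling, no trend, a replicate block and leaving out each library.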

Additional observations from a re-analysis of the deposited data

How the results depend on the processing

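Every one of the 32 genes kept its direction under both pseudocounts, no filter, median centring, no trend and the replicate block, as did the 29 with a mean of at least 5 FPKM under that filter. Under quantile scaling Calr and Atf4 turned to -0.017 and -0.015. With 1 library left out, signs turned for Atf4 (-0.080 to 0.21), Dnajb11 (-0.047 to 0.61), Dnajb9 (-0.48 to 0.54), Edem1 (-0.31 to 0.50), Hspa5 (-0.065 to 0.71), P4hb (-0.18 to 0.54), Pdia3 (-0.038 to 0.80), Sel1l (-0.023 to 0.24), Trib3 (-0.34 to 0.50) and Xbp1 (-0.015 to 0.20). Medians then ran from 0.067 to 0.32 for the set, -0.11 to 0.37 for the IRE1/XBP1 branch, 0.070 to 0.32 for the ATF6 branch, -0.071 to 0.18 for the PERK/ATF4 branch and 0.067 to 0.74 for genes in no branch.

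With a single knockout library the spread comes from the 2 controls alone, and the lone sample is assumed to vary like them. The limma fit then called 20 of the 32 without knockout 1 (17 higher, 3 lower; 8397 of all rows) and 5 without knockout 2 (2 higher, 3 lower; 2833 of all rows), against 0 without either control (0 of all rows). Genes of the set at an unadjusted p under 0.05 ran from 0 to 19 higher (0.416% to 37.7% of all rows) and 0 to 6 lower (1.41% to 29.9%), and genes without overlap from 14 to 21 higher (25.6% to 51.3%) and 7 to 12 lower (34.0% to 56.2%). With all libraries kept, genes without overlap were 13 higher and 7 lower. They were 19 and 6 under median centring, and 16 and 7 under quantile scaling. The shares of all rows under these scalings were not counted. FPKM summed to 528147 and 533824 in the controls and to 543952 and 609635 in the knockouts. The count of called rows was 4 with no filter. Chac1 was no longer at an unadjusted p under 0.05 with a pseudocount of 0.1, median centring or quantile scaling and not tested at 5 FPKM (0 lower in each), and 2 genes were lower with a pseudocount of 0.01. The cause was not tested.

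Same-numbered libraries did not deviate together (correlation -0.11 across rows). The replicate block called 13 rows, and 0 genes of the set were higher and 0 lower at an unadjusted p under 0.05; a crossed pairing, added after seeing the data, also called 13 rows with 0 and 0 in the set. Depth limits Chac1, Trib3, Ero1lb and Ddit3 most, which rest on the fewest estimated fragments.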
